A study of Mus musculus with 32 samples.

Results

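The replication-dependent histone genes were examined in mouse zygotes and 2-cell embryos. The members were the protein-coding genes whose symbol begins with Hist1h, Hist2h, Hist3h or Hist4h in the GENCODE M21 annotation of GRCm38, which gave 67 of the 55385 genes in the RNA files. They code for 6 linker histones H1, 18 histones H2A, 18 H2B, 12 H3 and 13 H4. Cluster 1 on chromosome 13 (chr13:21715763-23934851) held 54 members, cluster 2 on chromosome 3 (chr3:96219865-96270132) held 10, cluster 3 on chromosome 11 (chr11:58948920-58956830) held 2, and cluster 4 on chromosome 6 (chr6:136801553-136804415) held 1. A further 3 symbols of the same form are pseudogenes and were left out.

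Total RNA was sequenced in 16 libraries, 2 in each of 8 groups. All embryos were wild-type, made by in vitro fertilisation of B6D2F1/J oocytes with B6D2F1/J sperm from parents of 6 to 8 weeks, and cultured in KSOM medium. Embryos were given 10 µM A-485, an inhibitor of the acetyltransferases CBP and p300, or the solvent DMSO. The treatment window ran from 4 to 20 hours post insemination (hpi), from zygote to early 2-cell. RNA was taken from zygotes, early 2-cell embryos and late 2-cell embryos. Zygotes were taken within the window and so had a shorter exposure than 2-cell embryos, and the late 2-cell embryos were collected after wash-out. A separate pair of late 2-cell groups received 50 nM trichostatin A (TSA), an inhibitor of histone deacetylases, or DMSO between 8 and 28 hpi. The 2 late 2-cell DMSO groups were told apart by the style of their titles. Open chromatin was profiled by ATAC-seq at the late 1-cell stage and in early 2-cell embryos, each with A-485 or DMSO, with 1 deposited peak list per group over both replicates. Nothing in the labels says whether replicates came from separate fertilisations, so p-values measure the spread between these libraries.

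Core histones H2A, H2B, H3 and H4 form the nucleosome, and H1 binds the linker DNA between nucleosomes. Most replication-dependent histone genes lack introns, are transcribed in S phase, and give mRNAs that end in a conserved stem-loop in place of a poly(A) tail. SLBP, the stem-loop binding protein, carries these mRNAs through processing and translation. The oocyte stores histone mRNA for the first divisions. Because the RNA libraries were primed at random on total RNA, transcripts without a poly(A) tail could be counted.

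The stem-loop is shown because it defines this class of mRNA. The pattern GGNNCTNTTNAGNNCC was searched on the coding strand in the 120 bases after each annotated stop codon in the RefSeq GRCm38.p6 genome. It was found after the stop codon of 63 of 67 members (94.0%) and of 71 of 21752 protein-coding genes (0.326%). The exceptions among members were Hist1h2an, Hist1h3g, Hist1h4a and Hist2h2be, in which these letters were not in this window. The match began 22 to 59 bases after the stop codon, with a median of 31. There were 6 forms, printed with the stem in capitals and the loop in lower case. In the order printed they were carried by 41, 9, 8, 2, 2 and 1 members.
Form in Hist1h1a: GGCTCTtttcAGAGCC
Form in Hist1h3f: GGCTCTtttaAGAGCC
Form in Hist4h4: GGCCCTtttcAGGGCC
Form in Hist2h4: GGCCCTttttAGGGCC
Form in Hist1h4b: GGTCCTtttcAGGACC
Form in Hist2h2ac: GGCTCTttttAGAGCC
The stem differs from that of Hist1h1a in Hist4h4, Hist2h4 and Hist1h4b, and the loop differs in Hist1h3f, Hist2h4 and Hist2h2ac. In 47 members the stem-loop lay within the gene model, and in 22 the model ran on for more than 200 bases after it. In 16 the model ended before it.

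RefSeq promoters of 300 bases (250 before to 50 after the start, GRCm38.p6) could be matched to 62 members. The CCAAT box (CCAAT, either strand) was present in 53 of these (85.5%) and in 37.4% of all 32851 promoters. The TATA box (TATAAA, either strand) was present in 35 members (56.5%) and in 13.6% of all promoters. The octamer (ATTTGCAT, either strand), known as a site for Oct factors, was present in 13 members (21.0%) and in 1.74% of all promoters. All 13 were H2A or H2B genes, 7 and 6. Among H4 promoters, 3 of 12 held the CCAAT box, while all matched promoters of the other types did. Windows of neighbouring members on opposite strands can overlap, so the same site can be counted for both. The octamer of Hist1h2ae and Hist1h2bg is such a site. None of the 3 motifs contains another. A match describes the sequence and does not show that a factor binds.

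The sequences upstream of 4 members are printed because their RNA or ATAC values are described further on. Capitals mark the CCAAT box, TATA box and octamer on either strand, and each sequence reads 5′ to 3′ on the gene's strand and stops before the annotated start.
Hist1h1a, chr13:23763518-23763665, plus strand: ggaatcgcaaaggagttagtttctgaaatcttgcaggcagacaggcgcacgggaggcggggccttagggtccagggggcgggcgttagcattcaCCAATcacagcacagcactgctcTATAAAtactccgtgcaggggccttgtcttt
Hist1h2aa, chr13:23934287-23934436, plus strand: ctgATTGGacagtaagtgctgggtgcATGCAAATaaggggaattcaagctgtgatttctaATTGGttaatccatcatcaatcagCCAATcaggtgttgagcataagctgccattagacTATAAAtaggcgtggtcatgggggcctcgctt
Hist1h2an, chr13:21787249-21787398, minus strand: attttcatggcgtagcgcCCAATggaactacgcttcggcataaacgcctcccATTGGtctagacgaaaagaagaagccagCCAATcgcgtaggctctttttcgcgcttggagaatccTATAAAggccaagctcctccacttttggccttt
Hist2h2ab, chr3:96219735-96219864, plus strand: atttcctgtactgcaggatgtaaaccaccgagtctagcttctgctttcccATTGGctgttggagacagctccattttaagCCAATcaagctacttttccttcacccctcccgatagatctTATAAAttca
All 4 hold a CCAAT box and a TATA box, and of these 4 the octamer is in Hist1h2aa, an H2A gene known from testis and oocyte.

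Libraries held 13206163 to 32585987 counts. The late 2-cell A-485 libraries were the shallowest, and mitochondrially encoded mRNAs took 5.35 to 5.43% of their counts, against 2.35 to 2.44% in the DMSO libraries beside them and 0.955 to 1.06% in DMSO zygotes. The 8 oocyte and zygote markers summed to 560 to 2160 FPKM and were all at a mean of 1 FPKM or more in every group. FPKM, the count scaled to the effective length of the gene and the size of the library, is used for all levels. In whole embryos, fewer transcribing cells and less RNA per cell cannot be told apart. Reads of near-identical copies were divided between genes by the counting, and in 11 members the posterior SD of the count exceeded 10% of the count. These were Hist1h3h, Hist1h4k, Hist1h2bq, Hist1h2ao, Hist1h4m, Hist1h2br, Hist1h2ae, Hist1h2bg, Hist1h2ad, Hist1h2ab and Hist2h3c1, and their single values are uncertain. Annotated genes overlapped 24 members, and the strand setting of the counting is not given in the sources used here.

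Members took 0.259 to 0.269% of all counts in DMSO zygotes, 0.424 to 0.433% in DMSO early 2-cell embryos, and 0.363 to 0.397% and 0.302 to 0.323% in the 2 groups of DMSO late 2-cell embryos. With A-485 the share was 0.285 to 0.291% in zygotes and 0.42 to 0.425% in early 2-cell embryos. It reached 0.617 to 0.695% in late 2-cell embryos given A-485, the highest of the 8 groups by counts, and 0.372 to 0.384% in those given TSA. As a share of summed FPKM the order differed, with 0.831 to 0.844% in late 2-cell A-485 embryos, 0.742 to 0.781% in the DMSO libraries beside them and 0.883 to 0.895% in A-485 zygotes. Each of the 5 histone types had its highest share of counts in the late 2-cell A-485 libraries, where H2A took 0.312 to 0.338% and H1 0.125 to 0.147%. The 3 most abundant members, Hist1h1a, Hist2h2aa1 and Hist2h2aa2, made up 68.6 to 71.3% of the members' counts in DMSO zygotes and 45.3% in both DMSO libraries of the TSA experiment at the late 2-cell stage.

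**Figure D1:**
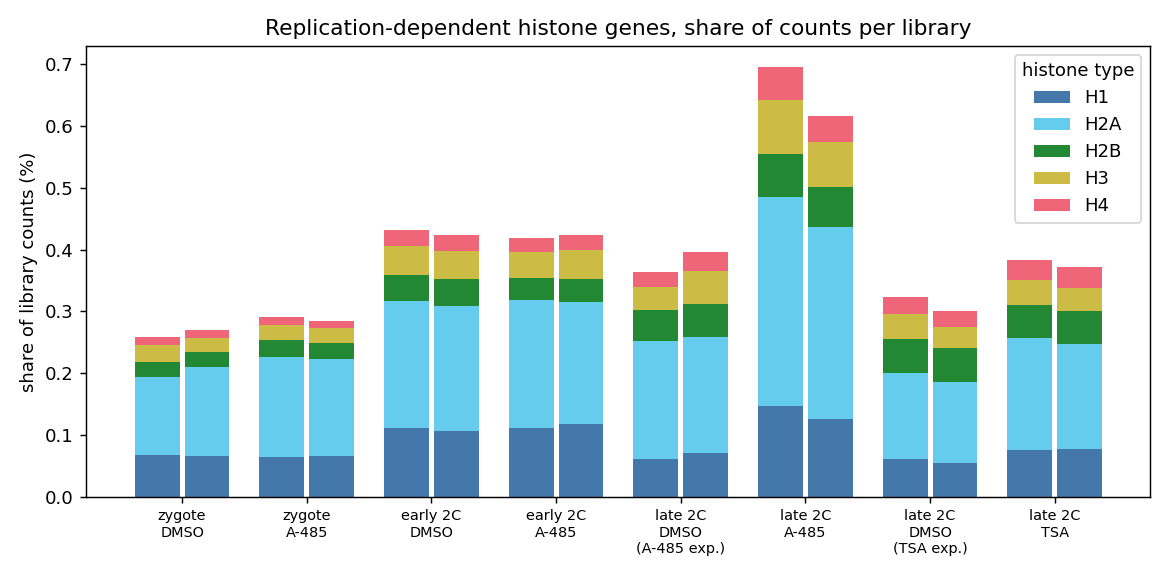
Share of each library's counts on the 67 members, in percent, stacked by histone type, with 1 bar per library and 2 bars per group. The late 2-cell A-485 bars reach 0.617 and 0.695%, above all other libraries.

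Zygotes contained RNA of many members, very unequally. Hist1h1a, a linker histone gene, was at 1157 and 1125 FPKM in the DMSO zygotes. Hist2h2aa1 and Hist2h2aa2, near-identical H2A copies in cluster 2, were best read together, and their sum was 3102 to 3705 FPKM. Their division between the copies varied by library, with Hist2h2aa2 at 1341 and 2624 FPKM in the same 2 libraries. Hist1h2bk, an H2B gene, was at 448 and 461 FPKM, Hist1h3f, an H3 gene, at 147 and 125, and Hist1h4a, an H4 gene, at 70.4 and 67.3. Hist1h2aa and Hist1h2ba, the H2A and H2B genes known from testis and oocyte, were at 106 and 132 and at 73.7 and 61.2 FPKM. The other 5 linker histone genes were each at 0.63 to 6.09 FPKM, far below Hist1h1a. In each DMSO zygote library 3 to 8 members had no count.

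From zygote to early 2-cell in DMSO, 44 of 67 members rose and none fell. A call needed an adjusted p under 0.05 in edgeR's quasi-likelihood F test, a change of at least 2-fold and a mean of at least 1 FPKM in either group. Over all 20106 genes tested, 11.2% were called up and 14.9% down. The median log2 change was 1.63 over the members and 0.08 over all genes tested. DESeq2 also called none down, and 1 member lay below a log2 change of 0 in edgeR. At an unadjusted p under 0.05 there were 58 members in edgeR and 56 in DESeq2, in either direction. In edgeR 10588 of all 20106 genes were under this p. The rise covered 2 of 6 H1, 12 of 18 H2A, 13 of 18 H2B, 7 of 12 H3 and 10 of 13 H4 genes. Scaled to the 13 mitochondrially encoded mRNAs, the median of expressed genes moved from -0.12 to -1.45, and 21 members were called up and 2 down. Under changed scaling, calls over all genes are given only for the treatments at the late 2-cell stage. Other counts of members under changed scaling therefore have no background beside them.

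On the log2 scale the largest rises were in genes nearly absent from zygotes. Hist1h2an, an H2A gene of cluster 1, was at 2.2 and 2.51 FPKM in DMSO zygotes and at 85.2 and 88.2 in DMSO early 2-cell embryos, a log2 change of 5.26 ± 0.30 (SE, adjusted p = 1.14e-08). Hist2h2ab, an H2A gene of cluster 2, went from 0.53 and 0 to 19.3 and 16.1 FPKM (6.03 ± 0.77, adjusted p = 2.12e-05). Hist2h2ac, beside it, went from 4.08 and 3.18 to 89.1 and 111 FPKM (4.87 ± 0.24, adjusted p = 2.95e-09). The groups did not overlap for these 3 genes. Hist1h2br, an H2B gene with uncertain division of reads, had 0 counts in both zygote libraries and 60 and 100 in early 2-cell embryos. With the floor set at 3 counts per library its own counts were 36.3-fold higher. This is no lower bound, since reads could be divided with Hist1h2bq, whose upstream sequence is the same. Hist1h2bq had 4 and 34 counts in the zygotes and 32 and 6 in the early 2-cell embryos. Hist1h1b, a linker histone gene, went from 1.69 and 0.63 to 15.9 and 19.6 FPKM (4.01 ± 0.42, adjusted p = 3.62e-06), and Hist1h1c, another, from 6.09 and 4.28 to 14.7 and 15.5 (1.63 ± 0.22, adjusted p = 3.55e-05).

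The abundant members changed less on the log2 scale, though Hist1h1a and Hist1h2bk gained more in FPKM than the genes above. Between DMSO zygotes and early 2-cell embryos their mean FPKM went from 1141 to 1872 and from 454 to 727. Hist1h1a was at 1927 and 1817 FPKM in early 2-cell DMSO embryos, a log2 change of 0.80 ± 0.07 that stayed under 2-fold. Hist1h2aa was at 98.8 and 118 FPKM, overlapping its zygote values (-0.06 ± 0.18). Grouped by their level in the A-485 zygotes, which are not part of this comparison, 30 of 41 members under 10 FPKM rose, with a median log2 change of 3.02. Of 17 members from 10 to under 100 FPKM, 12 rose (median 1.16), and of 9 members at 100 FPKM or more, 2 rose (median 0.76). Shares of all genes were not counted by level.

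The same stage step in A-485 embryos, a comparison that shares no library with the DMSO one and was added after seeing the data, gave 40 members up and 1 down, where 6.85% of all genes were called up and 15.6% down. The 1 that fell was Hist2h4, at 1.26 and 1.33 FPKM in zygotes and 0.34 and 0.32 in early 2-cell embryos, which was not called by DESeq2 or without any 1 of the 4 libraries. The median log2 change over members was 1.61, beside 1.63 in DMSO. Scaled to mitochondrial mRNAs, 16 members were called up and 11 down, with no share of all genes given for this scaling.

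From zygote to late 2-cell, with the DMSO libraries of the TSA experiment and also added after seeing the data, 44 of 66 members tested were higher and 3 lower, where 22.1% of all genes were higher and 20.2% lower. The 3 lower were Hist1h1d, Hist1h1e and Hist1h2aa. Scaled to mitochondrial mRNAs, 30 members were higher and 15 lower, with no share of all genes given for this scaling.

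**Figure D2:**
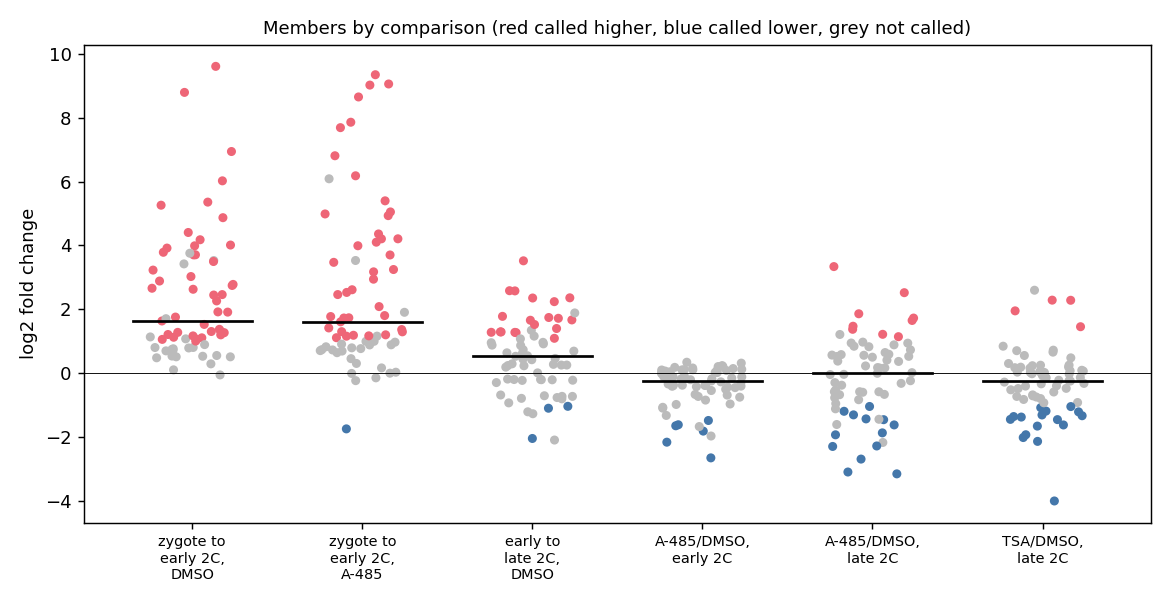
Log2 fold change of each member tested in 6 comparisons, red where called higher, blue where called lower, grey where not called, with the black line at the median. The medians of the zygote to early 2-cell steps are 1.63 in DMSO and 1.61 in A-485, and those of the treatments at the late 2-cell stage are close to or below 0.

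From early to late 2-cell in DMSO, 19 members rose and 3 fell, where 15.9% of all genes rose and 8.92% fell. With the DMSO libraries of the TSA experiment as the late group, 21 rose and 6 fell (19.3% and 10.3% of all genes). Hist1h2an rose to 250 and 314 FPKM (1.67 ± 0.17, adjusted p = 1.09e-05). Hist1h2bq, an H2B gene, went from 8.13 and 1.35 to 48 and 59.7 FPKM (3.52 ± 0.58, adjusted p = 0.000451). Hist1h2ap, an H2A gene, went from 84.2 and 28.8 to 293 and 399 FPKM (2.58 ± 0.37, adjusted p = 0.000134). All 3 were higher in both late libraries than in either early one. So was Hist1h2br, which went from 9.34 and 5.43 to 55.1 and 69.3 FPKM (2.36 ± 0.30, adjusted p = 6.05e-05). The 3 that fell were linker histone genes at low FPKM. Hist1h1d, with a model of 7425 bases, had 689 and 582 counts in the early DMSO libraries, where Hist1h1b had 187 and 236. Hist1h1d went from 4.44 and 3.68 to 1.93 and 2.02 FPKM, Hist1h1e from 4.47 and 5.11 to 1.91 and 2.58, and Hist1h1t, a testis gene, from 3.64 and 2.54 to 0.43 and 1.1. Of 4 fits that left out a library, the call was lost in 1 for Hist1h1d (-0.88 without early DMSO replicate 1). For Hist1h1e it was lost in 2 (-1.03 without early DMSO replicate 2 and -0.93 without late DMSO replicate 1). For Hist1h1t it was lost in 3, without early DMSO replicate 1 (-1.74) or 2 (-2.31) or late DMSO replicate 1 (-1.53), and also in DESeq2 (-2.08). With the DMSO libraries of the TSA experiment Hist1h1d and Hist1h1e were called and Hist1h1t was not. Hist1h1a stood at 1050 and 1176 FPKM at the late stage (-0.77 ± 0.09, under 2-fold).

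**Figure D3:**
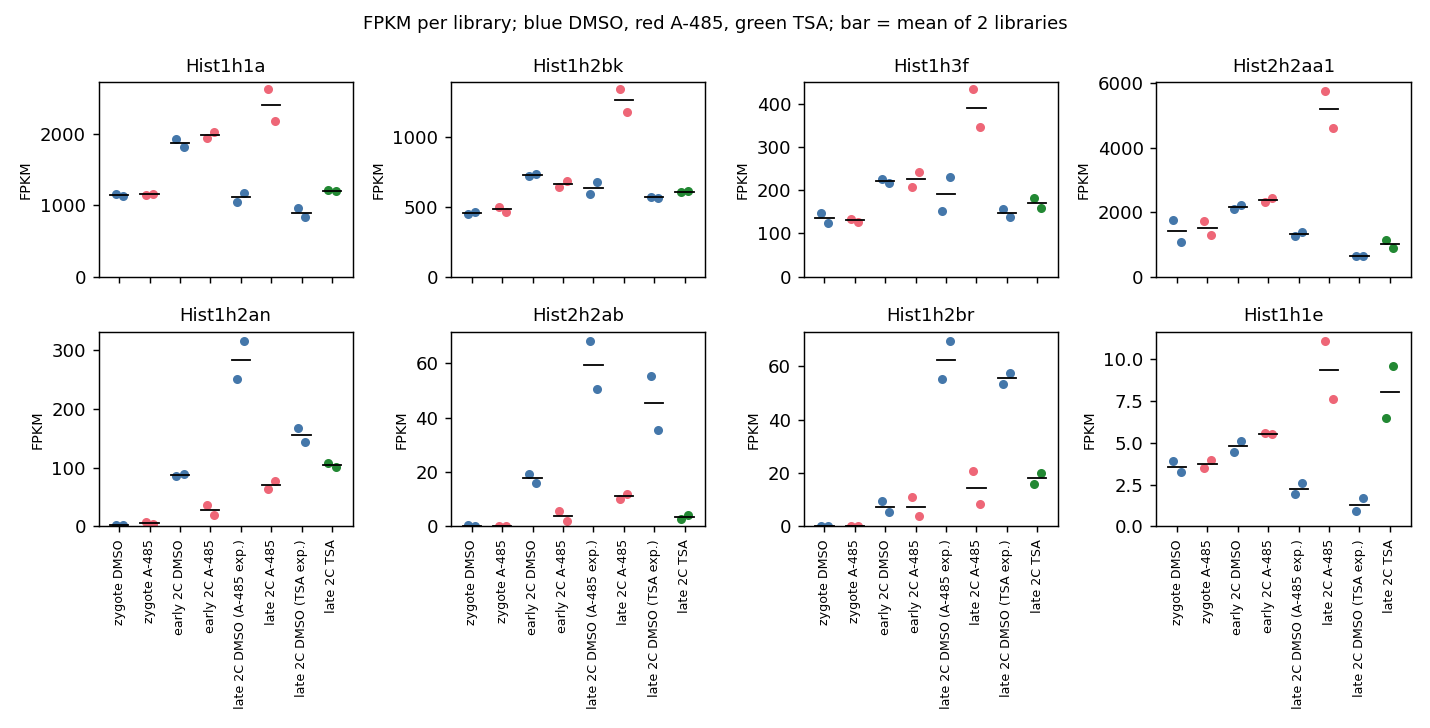
FPKM in each library for 8 members, with the groups in order of stage on the x axis, blue points for DMSO, red for A-485 and green for TSA, and a line at the mean of 2 libraries. Hist1h1a is at 837 FPKM or more in all 16 libraries, while Hist1h2an, Hist2h2ab and Hist1h2br are near 0 in zygotes and highest in late 2-cell DMSO embryos.

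In zygotes no member was called with A-485. Of 60 members tested, none was called in either direction by edgeR or DESeq2, where 0.0657% of all genes were called down and 0.00548% up. At an unadjusted p under 0.05 there were 11 members in edgeR and 9 in DESeq2, where 1073 and 686 of all 18258 genes tested were. Without A-485 replicate 1, 1 member was called lower. Hist1h1a was at 1145 and 1160 FPKM with A-485, a log2 difference of 0.00 ± 0.06.

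In early 2-cell embryos 6 of 67 members were lower with A-485 and none was higher, against 7.9% down and 0.402% up over all genes, so the share of members was close to the background. At an unadjusted p under 0.05 there were 17 members in edgeR and 14 in DESeq2, where 4873 and 4425 of all 20872 genes tested were. DESeq2 also called none higher. The 6 were 4 H2A genes, 1 H2B and 1 H3. Hist1h3i, an H3 gene, was at 23.2 and 28 FPKM in DMSO and 3.59 and 4.34 with A-485 (-2.66 ± 0.42, adjusted p = 0.000923). Hist2h2ab was at 19.3 and 16.1 against 5.63 and 2.15 FPKM (-2.17 ± 0.52, adjusted p = 0.0161). Hist1h2an was at 85.2 and 88.2 against 35.6 and 18.8 FPKM (-1.65 ± 0.28, adjusted p = 0.00181). In these 3 the groups did not overlap, and the call for Hist2h2ab was lost without A-485 replicate 2 (-1.62) or DMSO replicate 1 (-2.01). Hist2h2ac was at 89.1 and 111 against 39.2 and 24.9 FPKM (-1.62 ± 0.23, adjusted p = 0.00032). Reads may have been divided between Hist1h2ap and Hist1h2ao, an H2A gene with uncertain single values. In the DMSO libraries Hist1h2ap had 517 and 182 counts and Hist1h2ao 0 and 268. With A-485 Hist1h2ap had 152 and 111 and Hist1h2ao 165 and 112, and their sum was not tested. Hist1h2ap alone was at 84.2 and 28.8 against 23.9 and 16 FPKM (-1.49 ± 0.41, adjusted p = 0.0353). It was no longer called without DMSO replicate 1 (-0.50) or A-485 replicate 2 (-1.21). Hist1h1a was not lower, at 1943 and 2033 FPKM (0.11 ± 0.06). The 6 markers of the 2-cell stage summed to 405 to 436 FPKM in DMSO and 22.8 to 23.7 with A-485, and the 8 oocyte and zygote markers to 1550 to 1600 and 1700 to 1830, and their part in the members' differences was not tested.

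In late 2-cell embryos 13 members were lower with A-485 and 9 were higher, against 16.8% and 10.5% of all 22822 genes tested. The median log2 difference was -0.01 over the members, 0.28 over all genes tested and 0.02 over expressed genes. The lower members were 6 H2A, 5 H2B, 1 H3 and 1 H4 gene. Hist1h2an was at 250 and 314 FPKM in DMSO and 62.8 and 77.2 with A-485 (-2.30 ± 0.22, adjusted p = 5.46e-06). Hist1h2ap was at 293 and 399 against 6.46 and 84 FPKM (-3.16 ± 0.67, adjusted p = 0.00271), with A-485 libraries that stood far apart. Hist2h2ab was at 68 and 50.4 against 10 and 12 FPKM (-2.70 ± 0.38, adjusted p = 0.000148). In all 3 both A-485 libraries were below both DMSO libraries. Hist1h4m, an H4 gene with uncertain division of reads, was at 21.5 and 33.1 against 5.58 and 2.13 FPKM (-3.10 ± 0.66, adjusted p = 0.00275). Hist1h2br was at 55.1 and 69.3 against 20.7 and 8.21 FPKM (-2.29 ± 0.55, adjusted p = 0.0062). These groups did not overlap either.

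The higher members were 2 genes each of H1, H2A, H2B and H3 and 1 of H4. Hist2h2aa1 was at 1263 and 1384 FPKM in DMSO and 5773 and 4601 with A-485 (1.72 ± 0.10, adjusted p = 1.1e-07), whereas its near-identical copy Hist2h2aa2 was at 2567 and 2017 against 2345 and 2966 (-0.05 ± 0.14). The sum of the copies was 3401 to 3831 against 7566 to 8118 FPKM and was not tested. Hist2h3c2, an H3 gene, was at 64.6 and 99.1 against 291 and 233 FPKM (1.47 ± 0.18, adjusted p = 4.91e-05), and Hist1h3e, another H3 gene, at 9.85 and 10.6 against 42.7 and 32.5 (1.65 ± 0.29, adjusted p = 0.000703). The libraries of the copy Hist2h2aa2 overlapped between the groups, and those of the 2 H3 genes did not. Hist1h4b was at 87.4 and 83.5 against 289 and 200.3 FPKM (1.21 ± 0.23, adjusted p = 0.00114). Hist1h1e was at 1.91 and 2.58 against 11.1 and 7.6 FPKM (1.86 ± 0.36, adjusted p = 0.00157), and Hist1h1t at 0.43 and 1.1 against 5.13 and 4.97 (2.52 ± 0.76, adjusted p = 0.0212). The cluster 3 genes Hist3h2a and Hist3h2ba were at 14.3 and 18.8 against 45.6 and 38.1 FPKM (1.14 ± 0.18, adjusted p = 0.000392) and at 6.72 and 10.9 against 31 and 22.8 (1.37 ± 0.41, adjusted p = 0.0207). None of these H1, H4 and cluster 3 genes overlapped between the groups. The call for Hist1h4b was lost without A-485 replicate 1 (0.98), and that for Hist3h2ba without A-485 replicate 1 (1.16) or DMSO replicate 1 (1.12). The call for Hist1h1t was lost without A-485 replicate 1 (2.52) or 2 (2.54) or DMSO replicate 1 (2.04). Hist2h2be, with a log2 difference of 3.34 ± 0.96, stayed at 0.06 to 1.42 FPKM in these 4 libraries and lost its call without A-485 replicate 1 (2.72) or DMSO replicate 2 (3.02). Hist1h1a was at 1050 and 1176 against 2639 and 2181 FPKM (0.88 ± 0.10), and Hist1h2bk at 591 and 679 against 1348 and 1182 (0.73 ± 0.12), both under 2-fold in the test, whose values carry the TMM scaling that FPKM does not.

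These directions rest on the scaling. With mitochondrial mRNAs as the reference the median of expressed genes at this stage moved from 0.02 to -0.96. Then 29 of 67 members were called lower and none higher, where 6874 of 22822 genes were lower and 1177 higher. With total counts the median moved to 0.21, and 11 members were lower and 15 higher. Over all genes 3435 were then lower and 2939 higher. Relative to mitochondrial mRNAs, Hist2h2aa1 had a log2 difference of 0.74 and Hist3h2a of 0.15. Hist1h2an at -3.29 and Hist2h2ab at -3.66 were still called lower. Leaving out 1 library at a time gave 10 to 15 lower and 6 to 12 higher members. Marker genes moved with this group. The 8 oocyte and zygote markers summed to 728 to 778 FPKM in DMSO and 1390 to 1400 with A-485, and the 6 markers of the 2-cell stage to 276 to 285 and 60.2 to 78.6. The 6 cumulus cell markers summed to 0.24 to 1.07 and 3.34 to 3.63 FPKM, with Amh at 0 in all 4 libraries and Ptx3 at 0 in DMSO. With A-485 2 of the 6, Has2 and Foxl2, had a mean of at least 1 FPKM, and in DMSO none. Their part in the members' differences was not tested.

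TSA at the late 2-cell stage lowered 16 members and raised 4, against 13.9% and 13.8% of all genes. The lower ones were 1 H1, 5 H2A, 5 H2B, 3 H3 and 2 H4 genes. Hist2h2ab was at 55.2 and 35.5 FPKM in DMSO and 2.81 and 4.29 with TSA (-4.01 ± 0.35, adjusted p = 5.16e-06). Hist1h2bq was at 36.3 and 40.8 against 7.73 and 12.5 FPKM (-2.14 ± 0.29, adjusted p = 0.000155). Hist1h2ap was at 192 and 197 against 58.8 and 70.6 FPKM (-1.93 ± 0.14, adjusted p = 1.12e-06). In all 3 both TSA libraries were below both DMSO libraries. Hist1h2br was at 53.4 and 57.5 against 16 and 20 FPKM (-1.66 ± 0.16, adjusted p = 1.03e-05). Hist1h1b was at 42.3 and 44.1 against 18.3 and 17.5 FPKM (-1.63 ± 0.17, adjusted p = 1.59e-05). These groups did not overlap.

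The 4 that rose with TSA were Hist1h1e, Hist1h1t, Hist3h2ba and Hist1h4m. Hist1h1e was at 0.91 and 1.69 FPKM in DMSO and 6.5 and 9.59 with TSA (2.28 ± 0.35, adjusted p = 0.000325). Hist3h2ba was at 8.87 and 7.27 against 28.4 and 28.2 FPKM (1.45 ± 0.25, adjusted p = 0.000728), and Hist1h1t at 1.3 and 1.06 against 5.67 and 6.02 (1.95 ± 0.40, adjusted p = 0.0026). Hist1h4m was at 4.86 and 1.51 against 13.6 and 26.3 FPKM (2.29 ± 0.56, adjusted p = 0.00696). The groups of these 4 genes did not overlap, and without TSA replicate 2 the call for Hist1h4m was lost (1.71). Reads of Hist1h4m could be divided with Hist1h4n, whose upstream sequence is the same and which was called lower with TSA. In DMSO Hist1h4m had 32 and 10 counts and Hist1h4n 498 and 403. With TSA Hist1h4m had 63 and 132 and Hist1h4n 202 and 127, and their sum was not tested. Hist1h1a differed by 0.07 ± 0.07 (959 and 837 against 1215 and 1197 FPKM). Scaled to total counts, the median of expressed genes moved from -0.03 to 0.32, and 10 members were lower and 8 higher. Over all 23429 genes 2384 were then lower and 4108 higher. Scaled to mitochondrial mRNAs the median moved to -0.21, and 19 members were lower and 4 higher. Over all genes 3777 were then lower and 2980 higher. The 5 erythroid markers summed to 0.78 to 1.36 FPKM in DMSO and 44.6 to 46.8 with TSA, where 3 had a mean of at least 1 FPKM, with Hbb-bs and Hbb-bt at 0 in all 4 libraries. The 2-cell markers summed to 159 to 191 and 447 to 458 FPKM, and the oocyte and zygote markers to 560 to 577 and 723 to 747. Their part in the members' differences was not tested.

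The A-485 and TSA comparisons at the late stage share no library. Of the 13 members lower with A-485, 8 were lower with TSA (61.5% of 13 and 50.0% of 16), and of the 9 higher with A-485, 3 were higher with TSA (33.3% of 9 and 75.0% of 4). Of all genes tested, 13.9% were lower and 13.8% higher with TSA. The share called with TSA among all genes called with A-485 was not counted, so the overlap of members has no matching background. The 8 were Hist1h2bm, Hist1h2bp, Hist1h2bq, Hist1h2ap, Hist1h2br, Hist1h2ag, Hist1h3c and Hist2h2ab, and the 3 were Hist1h1e, Hist1h1t and Hist3h2ba. Of the 8, the A-485 call for Hist1h2bq was lost in DESeq2 (-1.25), with total counts (-1.12) and without A-485 replicate 1 (-0.78), DMSO replicate 1 (-1.42) or DMSO replicate 2 (-1.12), and that for Hist1h2ap in DESeq2 (-3.12). Hist1h4m was lower with A-485 and higher with TSA, but its reads could be divided with Hist1h4n, which was lower with TSA. Beside the early rise in DMSO, which shares no library with either treatment comparison at the late stage, 11 of the 13 members lower with A-485 and 14 of the 16 lower with TSA were among the 44 of 67 that rose from zygote to early 2-cell. Of the 9 higher with A-485, 3 were among those 44, and of the 4 higher with TSA, 1.

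Members were also read in genomic order, after their values had been seen and so with no test. Gaps over 100 kb divided cluster 1 into 4 blocks. The first block (chr13:21715763-21837530, 122 kb) held 18 members, of which 10 were lower and none higher with A-485 at the late stage (16.8% and 10.5% of all genes). With TSA 9 of these 18 were lower and 1, Hist1h4m, higher (13.9% and 13.8% of all genes). The 29 members of the third block (chr13:23531050-23764406) included 1 lower and 4 higher with A-485, and 4 lower and 2 higher with TSA. In DMSO the first block had 15 of 18 members rising from zygote to early 2-cell and 11 of 18 rising from early to late 2-cell, against 20 and 5 of 29 in the third block, where 11.2% and 15.9% of all genes rose. Several of the first block's members share near-identical sequence, and Hist1h2bq, Hist1h2ao, Hist1h4m and Hist1h2br there have uncertain single values.

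**Figure D4:**
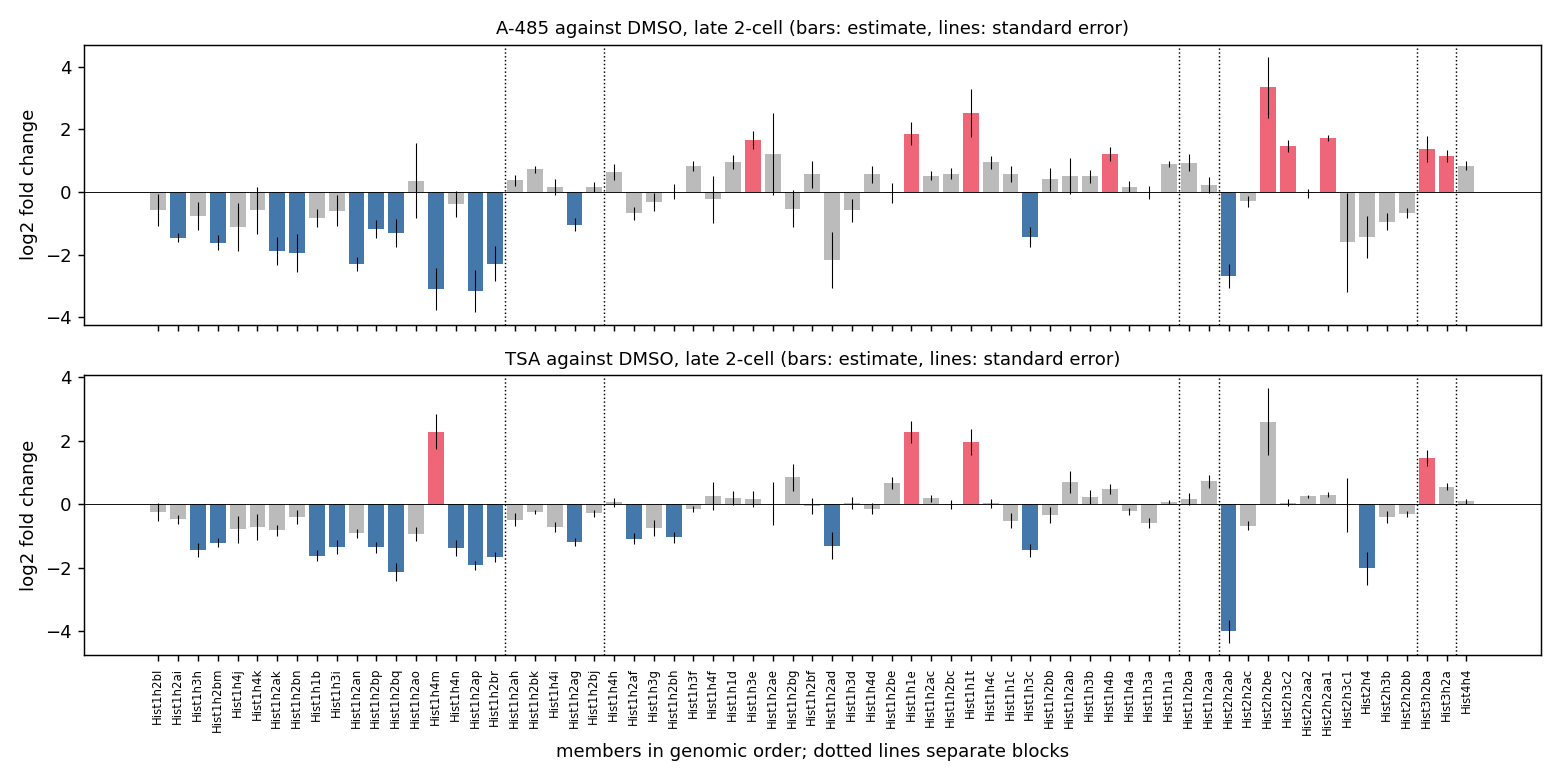
Log2 fold change with its standard error for the 67 members in genomic order at the late 2-cell stage, A-485 above and TSA below, blue where called lower and red where called higher, with dotted lines between blocks. In the first block of 18 genes on the left, 10 are lower with A-485 and 9 with TSA.

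Head-to-head pairs, whose starts lie 175 to 659 bases apart, numbered 13, and 12 of them joined an H2A and an H2B gene. From zygote to early 2-cell in DMSO both partners rose in 6 pairs and 1 of the partners was called in 4, where 44 of all 67 members rose. With A-485 at the late stage both fell in 3 pairs and 1 partner was called in 4. Opposite calls within a pair were possible only with A-485 at the late stage. There Hist2h2be was the only paired member called higher, and its partner Hist2h2ac was not called. In the other comparisons made for pairs, paired members were called in a single direction or not at all.

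The effect of A-485 differed between the stages for 16 members in the interaction test, with 15 differences upward from early to late 2-cell and 1 downward (7.6% and 7.38% of all genes). Scaled to mitochondrial mRNAs there were 2 upward and 14 downward, and without late DMSO replicate 1 of the A-485 experiment there were 8 upward and 2 downward. The sum of the near-identical copies Hist2h2aa1 and Hist2h2aa2 at early 2-cell was 4707 to 4846 FPKM in DMSO and 4735 to 5112 with A-485. At the late stage the sum was 3401 to 3831 and 7566 to 8118 FPKM, and no difference was tested on it. For Hist2h2aa1 alone the log2 difference was 0.16 at early and 1.72 at late 2-cell, which differed by 1.65 ± 0.12 (adjusted p = 3.65e-10). For Hist1h1t it was -1.97 and 2.52 (4.58 ± 1.11, adjusted p = 0.00361), and for Hist2h2be -1.68 and 3.34 (5.09 ± 1.44, adjusted p = 0.012), both at few counts. Hist1h2ba, which changed by -0.37 and 0.94, was called in neither stage alone.

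The TSA and A-485 effects at the late stage differed for 6 members, 3 in each direction (10.8% of all genes upward and 2.7% downward). Scaled to mitochondrial mRNAs, 15 differed upward and none downward, and Hist2h2aa1 (-0.62), Hist1h3e (-0.68) and Hist2h3c2 (-0.61) were no longer called. The count was 13 without late A-485 replicate 2, 12 without late DMSO replicate 2 of the A-485 experiment and 9 in DESeq2 (2 upward and 7 downward). Hist1h4m had the largest difference of these 6, at 5.50 ± 0.91 (adjusted p = 0.000267), with reads that could be divided with Hist1h4n. Hist1h2an was lower with A-485 than with TSA relative to each DMSO group (1.49 ± 0.26, adjusted p = 0.000377). Between early 2-cell and zygote, stage and length of exposure to A-485 cannot be told apart. In a comparison of these 2 stages, added after seeing the data, the A-485 effect differed downward for 1 member, Hist1h2an, and upward for none (3.69% and 0.313% of all genes). Its log2 difference was 1.24 in zygotes and -1.65 in early 2-cell embryos (-2.84 ± 0.57, adjusted p = 0.00249), and its call was lost without zygote A-485 replicate 1. At an unadjusted p under 0.05 there were 12 members in edgeR and 8 in DESeq2, with no share of all genes given.

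ATAC peaks within 1 kb of an annotated start were present at 30 of 67 members in late 1-cell DMSO embryos and at 28 with A-485, 44.8% and 41.8% against 26.1% and 24.6% of all 22028 protein-coding genes. In early 2-cell DMSO embryos 38 members (56.7%) had a peak, against 31.6% of protein-coding genes. In early 2-cell embryos given A-485, 8 members (11.9%) had one, against 40.8% of protein-coding genes. Of the 38 members with a peak in DMSO, 3 also had one with A-485 (7.89%), whereas 5696 of 6964 protein-coding genes did (81.8%). The 3 were Hist1h1c, Hist2h2aa1 and Hist2h3c1. Neighbouring members share peaks, so the 38 members stood on 28 distinct peaks and the 8 on 6. The lists held 27693 and 13712 distinct peaks in early 2-cell DMSO and A-485 embryos. Since each list was made over both replicates, this difference has no replicate check.

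By type, the early 2-cell DMSO peaks lay at 13 H2A, 12 H2B, 6 H3, 5 H4 and 2 H1 genes, and those with A-485 at 2, 1, 2, 0 and 3. In the first block of cluster 1, 10 of 18 members had a peak in DMSO and 1 with A-485. The start of Hist1h2an had a peak in the late 1-cell DMSO, late 1-cell A-485 and early 2-cell DMSO lists, with fold enrichments of 10.2, 9.3 and 12.1, and none in the early 2-cell A-485 list. Hist2h2ab had a peak in the early 2-cell DMSO list alone (7.57). Hist1h2aa and Hist1h2ba shared a peak in both late 1-cell lists (6.21 and 8.93) and in the early 2-cell A-485 list (6.62), but not in the early 2-cell DMSO list. Hist1h1c had a peak in all 4 lists. With an equal number of peaks taken from each list, the 7094 of highest fold enrichment, 15 members had a peak in early 2-cell DMSO and 3 with A-485, against 8.99% and 24.7% of protein-coding genes. Other protein-coding genes inside cluster 1 numbered 49, and 2 of them had a peak in DMSO, 1 of which was kept with A-485. With A-485 4 of these 49 had a peak, while cluster 1 members with a peak numbered 28 of 54 in DMSO and 6 with A-485.

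**Figure D5:**
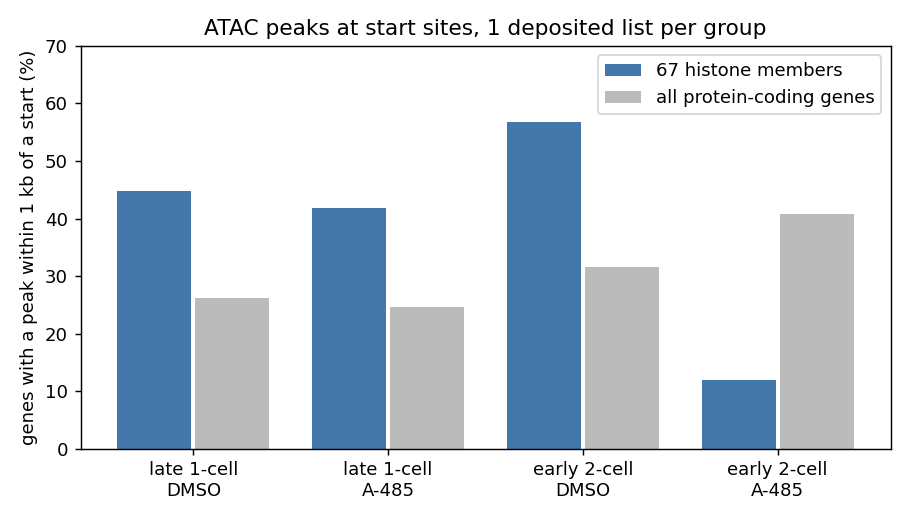
Percent of the 67 members (blue) and of all protein-coding genes (grey) with an ATAC peak within 1 kb of a start, for the 4 deposited lists. The members fall from 56.7% to 11.9% between the early 2-cell DMSO and A-485 lists, where all protein-coding genes stand at 31.6% and 40.8%.

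At the early 2-cell stage 35 members had a peak in the DMSO list alone. Of these, 4 were lower in RNA with A-485 and none higher, with a median log2 difference of -0.39, where 7.9% of all genes were lower. Of the 24 members with a peak in neither list, 2 were lower (median -0.22), and of the 8 with a peak in the A-485 list none was called. Differences between these classes were not tested.

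Genes that act beside the histones were taken from lists. Of 10 histone chaperones tested, 6 were lower and none higher with A-485 at the late stage, and 3 were lower with TSA, where 16.8% and 13.9% of all genes were lower. Of 16 genes of histone mRNA processing and turnover, 8 and 4 were lower, and of 12 replacement histones tested, 4 and 4, with none higher. In early 2-cell embryos A-485 lowered 1 chaperone, 2 processing genes and no replacement histone (7.9% of all genes). From zygote to early 2-cell in DMSO 5 chaperones fell and none rose, 2 processing genes fell and 3 rose, and 5 replacement histones fell and 2 rose, where 14.9% of all genes fell and 11.2% rose. Slbp was at 993 and 998 FPKM in DMSO zygotes, 329 and 367 in early and 248 and 210 in late 2-cell DMSO embryos (-1.43 ± 0.07 from zygote to early 2-cell, adjusted p = 2.52e-09). With A-485 at the late stage Slbp was at 100.4 and 125 FPKM (-1.30 ± 0.16, adjusted p = 4.77e-05), and with TSA it differed by -0.10 ± 0.08. Npat, the coactivator of histone gene transcription, rose from 7.82 and 7.1 FPKM in DMSO zygotes to 16.9 and 16.5 (1.25 ± 0.11, adjusted p = 4.67e-07), and at the late stage was at 29.2 and 27.7 in DMSO and 13.2 and 11.3 with A-485 (-1.42 ± 0.14, adjusted p = 7.06e-06). Both genes were lower in both A-485 libraries than in either DMSO library. Nasp, a chaperone of H1 and H3, was at 260 and 265 FPKM in DMSO and 60.5 and 62.8 with A-485 (-2.28 ± 0.11, adjusted p = 2.09e-08), and Ncbp1, a cap-binding subunit, at 81.8 and 97.4 in DMSO and 5.23 and 4.55 with A-485 (-4.55 ± 0.15, adjusted p = 4.29e-09).

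Among replacement histones, H2afz, which codes for H2A.Z, rose from 9.21 and 8.24 FPKM in DMSO zygotes to 47.9 and 45.1 in early and 195 and 221 in late 2-cell embryos. It was lower with A-485 at the late stage (65.4 and 37.8 FPKM, -2.20 ± 0.17, adjusted p = 8.32e-07) and with TSA (251 and 253 FPKM in DMSO and 91.1 and 88.6 with TSA, -1.74 ± 0.09, adjusted p = 1e-07). H3f3a, one of the H3.3 genes, was lower with both (-1.24 ± 0.13 and -1.97 ± 0.08), and H3f3b, the other, differed by 0.30 ± 0.10 and -0.39 ± 0.06. H1foo, the oocyte linker histone, fell from 320 and 321 FPKM in DMSO zygotes to 145 and 143 in early and 47.6 and 52.3 in late 2-cell embryos. It was not called with either inhibitor at any stage, and Hist1h1a exceeded it in every library.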

How the data were processed

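For RNA-seq, the authors trimmed reads with Trimmomatic 0.39, mapped them to GRCm38 with STAR 2.7.8a and quantified genes with RSEM 1.3.1, and deposited the expected count and the FPKM of each gene in each library. For ATAC-seq, the authors ran the ENCODE pipeline and deposited 1 list of reproducible peaks per group over both replicates, with fold enrichment as a ratio and p and q values as −log10. The annotation release used by the authors is not given in the sources used here.

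Expected counts were rounded, and a gene was kept when its sum in the fitted libraries reached 10 counts. Tests were made by quasi-likelihood in edgeR 4.0.16 (R 4.3.3), with TMM scaling and Benjamini-Hochberg adjustment over all genes tested. Calls needed an adjusted p under 0.05, at least 2-fold and a mean FPKM of at least 1. Fits used the libraries of each comparison. Interactions used 8 libraries. The fit was tested on simulated counts, with 200 changed genes planted in each of 2 comparisons. Of these, 97% were recovered in the zygote comparison (18246 genes) and 96.5% in the late 2-cell comparison (23182 genes). These shares hold for the simulated counts alone. Whether the simulated spread matched that of the members was not tested, so the shares give no power for the members' calls. In the real libraries, 8 members in A-485 zygotes and 10 in DMSO zygotes differed over 2-fold between replicates. At the late 2-cell stage these were 13 with A-485 and 5 in the DMSO group beside it. DESeq2 1.42.0, total-count and mitochondrial scaling, no count filter, no FPKM cutoff, a replicate block and leaving out each library were alternatives. Identical peak intervals were merged, and a peak within 1 kb of any GENCODE M21 transcript start was assigned to the gene.

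Members and lists were chosen with earlier results of these data known. Besides a fixed list (the H1 genes, Hist1h2aa, Hist1h2ba and clusters 3 and 4), members were named when they were among the 2 highest of a core type by mean FPKM, among the 3 largest called changes per direction and comparison with a mean of at least 10 FPKM and no overlap, or among the 2 largest per interaction. Members named otherwise (Hist1h2bm, Hist1h2bp, Hist1h2ag, Hist1h3c and those listed as exceptions or shared calls) were chosen after their values were seen.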

Additional observations from a re-analysis of the deposited data

Results flagged for a closer look

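Groups of 2 libraries are too small for a test of single outlying libraries. Differences of effect were found by the interaction test of edgeR for members named above. The A-485 effect was higher at late than at early 2-cell, on the log2 scale, by 1.21 for Hist1h1c, 4.58 for Hist1h1t, 1.39 for Hist1h2ba, 1.71 for Hist1h1e, 1.58 for Hist3h2ba, 1.65 for Hist2h2aa1, 5.09 for Hist2h2be, 1.40 for Hist2h2ac, 1.67 for Hist1h4b, 1.70 for Hist1h3e, 1.16 for Hist3h2a, 1.45 for Hist2h3c2, 1.04 for Hist4h4 and 2.13 for Hist1h3i. With mitochondrial scaling the calls held for Hist1h1t and Hist2h2be and were lost for the other 12. Without late DMSO replicate 1 of the A-485 experiment the difference was 0.74 for Hist1h1c, 0.82 for Hist3h2a and 1.1 for Hist3h2ba. Without late DMSO replicate 2 of that experiment it was 1.0 for Hist1h2ba. Hist1h3i was at 0.81 without late A-485 replicate 1 and kept its call in 1 of 8 fits that left out a library, and Hist4h4 lost its call in DESeq2 (0.95), with no count filter (1.00) and in 5 of those 8 fits.

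Hist2h2aa1 was tested apart from its near-identical copy Hist2h2aa2, above and below, and no difference was tested on their sum. The TSA effect was lower than the A-485 effect at late 2-cell by -1.31 for Hist2h2aa1, -1.38 for Hist1h3e and -1.32 for Hist2h3c2, and higher by 5.50 for Hist1h4m and 1.49 for Hist1h2an. Reads of Hist1h4m could be divided with Hist1h4n, and no difference was tested on their sum. The 3 lower ones lost their calls with mitochondrial scaling (-0.62, -0.68 and -0.61), and Hist1h3e also without 1 of 4 single libraries (-1.08 to -1.37). The A-485 effect on Hist1h2an was lower at early 2-cell than in zygotes by -2.84, in a comparison added after seeing the data, and the call was lost without zygote A-485 replicate 1 (-2.13).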

How the results depend on the processing

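The count of members called from zygote to early 2-cell in DMSO was 44, and 23 with mitochondrial scaling. It was 40 to 45 in the other alternatives. The count for the difference of the TSA and A-485 effects was 6, and 15 with mitochondrial scaling, all upward, 11 with no count filter and 11 with the replicate block. Leaving out 1 library gave 0 to 1 called members for A-485 in zygotes, 10 to 21 for the late against early A-485 difference and 4 to 13 for the TSA against A-485 difference. Replicate numbers were not taken to pair the samples. Between A-485 and DMSO groups the correlation of deviations was -0.029 in zygotes, -0.019 at early and -0.033 at late 2-cell. Between the TSA group and its DMSO group it was 0.479, so pairing was not excluded there. With the replicate block TSA gave 16 members lower and 4 higher, the same counts as without it. The replicate block gave 22 members up from early to late 2-cell, against 19, and 4 members for the early 2-cell against zygote A-485 difference, against 1. Over nuclear genes alone the mean share of counts on members was 0.439% in DMSO and 0.432% in A-485 early 2-cell embryos and 0.392% in late 2-cell TSA embryos.

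With 7094 peaks of highest enrichment per list, 15 members had a peak in early 2-cell DMSO and 3 with A-485. Mitochondrial scaling reversed the zygote to early 2-cell change in DMSO of Hist4h4 (-0.12), Hist3h2a (-0.14), Hist3h2ba (-0.21), Hist2h2bb (-0.07) and Hist1h4b (-0.04), and the late against early A-485 difference of Hist4h4 (-0.01). Under the same scaling, in added comparisons, Hist4h4 (-0.33) and Hist1h4a (-0.31) reversed from zygote to late 2-cell, and Hist1h1c (-0.35), Hist4h4 (-0.50), Hist3h2a (-0.53), Hist3h2ba (-0.41) and Hist2h3c2 (-0.54) from zygote to early 2-cell in A-485. The cause was not tested. In each DMSO zygote library 3 to 8 members had no count, and lower levels there were not detectable at this depth.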
